A study of Mus musculus with 2 samples.

Results

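Group 2 innate lymphoid cells (ILC2) were examined as the cells that the authors' deposited cluster table places in its cluster 0, 1 of 13 clusters numbered 0 to 12. Cluster 0 held 2164 of 10017 clustered mouse cells, 854 in the chow library and 1310 in the ketogenic library. The cells were CD45+ leukocytes of adipose tissue from adult wild-type (wt) C57BL/6 mice, CD45 being the surface protein that leukocytes share. One group ate control chow and the other a ketogenic diet (KD), for 1 week, and an intravenous label had served to tell resident from circulating cells. Each diet is 1 library made with a 10x Genomics protocol. How many animals went into a library, and their age in weeks and sex, are not given in the sources used here. With 1 library per diet there is no replicate, so no test between diets was possible, and every difference below is one between these libraries.

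ILC2 are tissue-resident lymphocytes that do not use rearranged antigen receptors. They respond to the alarmins IL-33, IL-25 and TSLP, which other tissue cells release, and they secrete type 2 cytokines. In adipose tissue they are known for the IL-5 that sustains eosinophils and the IL-13 that acts on macrophages, and their identity depends on the transcription factors GATA3 and RORα.

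Expression was measured in unique molecular identifiers (UMIs), each of which stands for 1 captured transcript molecule. UMIs of a gene were summed over the cells of cluster 0 in each library and scaled to a common total of 1000000 (CPM). Values in brackets are 95% intervals, exact Poisson for CPM, exact conditional for a ratio and exact binomial for a share of cells, and they cover counting error only. Cluster 0 held 2378574 UMIs in the chow library and 4359553 in the ketogenic library. A cell had a median of 2610.5 UMIs on chow and 3133 on ketogenic diet, so the ketogenic cells were the more deeply sampled. Median mitochondrial shares were 1.82% and 1.72%. No barcode named a cluster 0 cell in both libraries, and 11 cluster 0 cells carried a barcode that also named some cell of the other library. Levels of different genes were not compared, since UMI sums are not given per transcript length.

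All 7 marker genes listed for ILC2, among them Gata3, Rora, Il1rl1, Il5, Csf2 and Calca, were at least 2-fold higher in cluster 0 than in the other clustered cells, with 20 CPM added to each side. Of these, Csf2, Calca and Il5 were among the 10 leading genes of the cluster by fold. Of the regulatory T cell markers only Il2ra was raised, of the γδ T cell markers only Tcrg-C1, and of the natural killer (NK), T, macrophage, type 1 dendritic and B cell markers none. The markers went into the authors' clustering too, so their levels here describe the cluster and test nothing. The deposited table gives cluster numbers and no cell type names, and the cells are called ILC2-like from these markers.

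Among the transcription factor markers, Gata3, the central regulator of type 2 lymphocytes (chr2:9857078-9890034, minus strand), stood at 583 CPM [553 to 615] on chow and 722 [697 to 748] on ketogenic diet. Rora, which encodes RORα (chr9:68653786-69388246, plus strand), stood at 576 CPM [546 to 607] on chow and 476 [456 to 497] on ketogenic diet. The intervals did not overlap for either gene, with Gata3 higher and Rora lower in the ketogenic library. Positions of genes are those of the GENCODE annotation of GRCm38.

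Il1rl1, which encodes the IL-33 receptor ST2 (chr1:40429570-40465415, plus strand), stood at 790.4 CPM [755 to 827] on chow and 513 [492 to 534] on ketogenic diet. Il5 (chr11:53720794-53725106, plus strand) stood at 426 CPM [400.5 to 453] on chow and 303 [286 to 319] on ketogenic diet. Both were higher on chow, with intervals apart. Csf2, which encodes GM-CSF (chr11:54247271-54249667, minus strand), stood at 607 CPM [576 to 639] on chow and 813 [786 to 839.9] on ketogenic diet. Calca, which encodes the neuropeptide CGRP (chr7:114631478-114636357, minus strand), stood at 231 CPM [212 to 251] on chow and 385 [367 to 404] on ketogenic diet. These were higher in the ketogenic library, again with intervals apart.

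**Figure D1:**
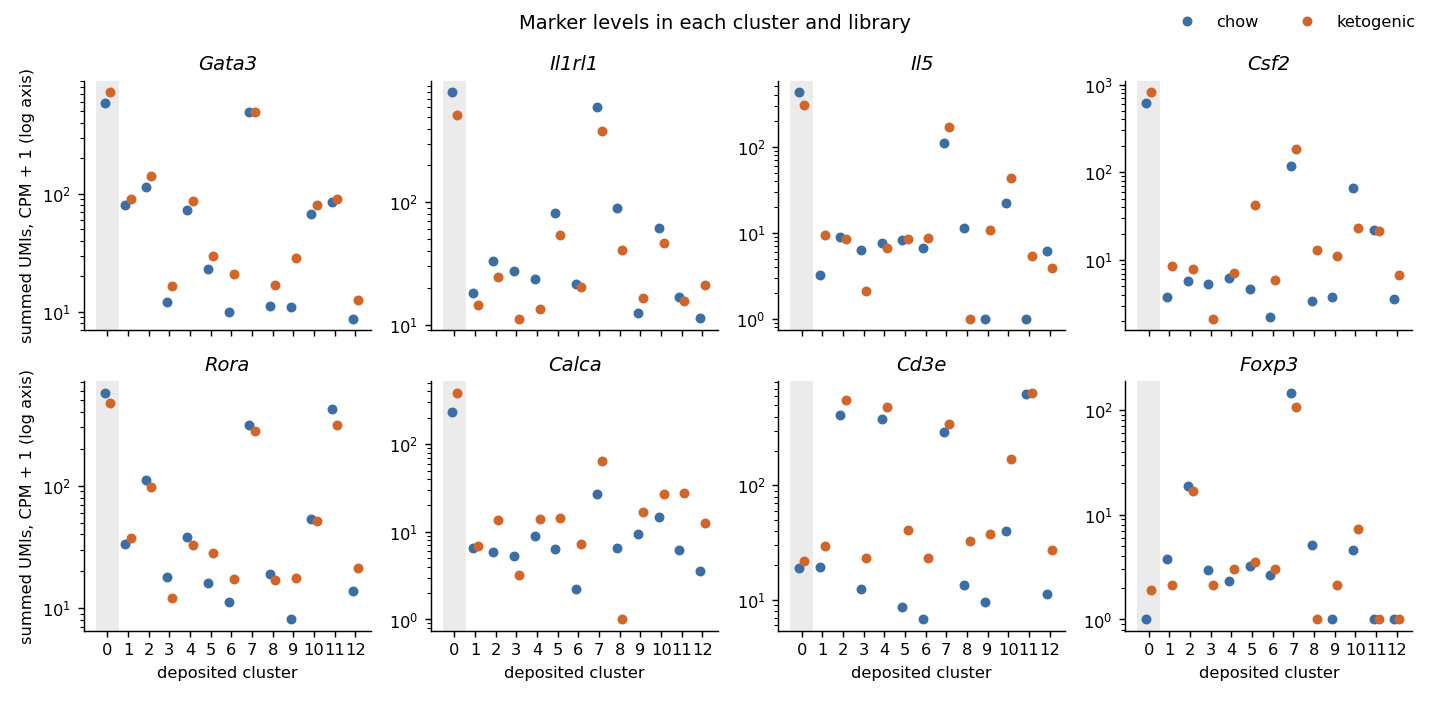
Summed level of 6 marker genes (CPM plus 1, log axis) in the 13 deposited clusters, with 1 point per library and cluster 0 shaded, and Cd3e and Foxp3 as T cell genes for comparison. Each of the 6 markers shown is highest in cluster 0 in both libraries, while Cd3e stands there at 18.1 and 20.9 CPM on chow and ketogenic diet against 627 and 645 CPM in cluster 11.

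Regions upstream of RefSeq start sites are shown because GATA factors, of which Gata3 encodes one, recognise a short core that can be read from sequence. The windows are the 250 bases before a transcription start in RefSeq (assembly GRCm38.p6). These starts are not always those of the GENCODE genes whose positions are printed. They are the same for Il1rl1, Il5 and Il13, while that of Csf2 lies 232 bases upstream of the GENCODE start, that of Hba-a1 161 bases downstream of it, so that its window overlaps the GENCODE gene, and those of Gata3, Hs3st1 and Ccl1 11434, 110844 and 125878 bases downstream. Capitals mark every match, on either strand, to the motif AGATAA, its variant TGATAA, or the forms that end in G, namely AGATAG and the related TGATAG, and no marked match overlaps another. The windows of Il1rl1 (its upstream start), of the cytokine genes Il5, Il13 and Csf2, and of Hba-a1, a leading gene described further on, read 5′ to 3′ along the gene:
Il1rl1, chr1:40429320-40429569, plus strand: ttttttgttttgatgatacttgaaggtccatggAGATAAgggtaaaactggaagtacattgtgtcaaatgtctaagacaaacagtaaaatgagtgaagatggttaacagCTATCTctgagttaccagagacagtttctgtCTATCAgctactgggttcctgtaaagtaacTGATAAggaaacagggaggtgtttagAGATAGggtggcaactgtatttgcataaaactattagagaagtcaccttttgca
Il5, chr11:53720544-53720793, plus strand: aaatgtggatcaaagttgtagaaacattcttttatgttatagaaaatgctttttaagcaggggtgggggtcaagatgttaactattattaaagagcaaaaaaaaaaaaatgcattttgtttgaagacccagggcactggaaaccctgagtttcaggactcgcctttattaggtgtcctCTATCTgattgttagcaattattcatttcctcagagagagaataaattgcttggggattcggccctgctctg
Il13, chr11:53634703-53634952, minus strand: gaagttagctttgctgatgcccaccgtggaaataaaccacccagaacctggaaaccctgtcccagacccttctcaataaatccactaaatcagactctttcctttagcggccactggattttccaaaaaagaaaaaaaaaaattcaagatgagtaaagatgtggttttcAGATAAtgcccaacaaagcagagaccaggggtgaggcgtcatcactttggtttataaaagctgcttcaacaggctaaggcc
Csf2, chr11:54249900-54250149, minus strand: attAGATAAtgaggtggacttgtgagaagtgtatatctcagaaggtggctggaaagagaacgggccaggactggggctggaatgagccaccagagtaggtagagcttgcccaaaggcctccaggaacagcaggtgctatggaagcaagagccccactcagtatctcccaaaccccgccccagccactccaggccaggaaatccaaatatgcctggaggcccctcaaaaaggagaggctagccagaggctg
Hba-a1, chr11:32283422-32283671, plus strand: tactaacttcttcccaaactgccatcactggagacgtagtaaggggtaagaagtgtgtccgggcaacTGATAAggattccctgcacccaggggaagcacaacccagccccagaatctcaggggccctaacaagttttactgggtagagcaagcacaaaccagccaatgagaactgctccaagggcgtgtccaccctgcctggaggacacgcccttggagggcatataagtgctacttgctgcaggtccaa

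The Il1rl1 window held 5 matches, at 217, 141, 110, 80 and 54 bases before the start. The match of Il5 lay 72 bases before the start, that of Il13 81 bases, that of Csf2 247 bases and that of Hba-a1 183 bases. Over all 32851 windows of this length, 8718 (26.5%) held at least 1 match and 14 (0.0426%) held at least 5. Of the 13 genes that are markers or leading genes of cluster 0, 10 were in the RefSeq promoter table and 7 of these had a match, among them Rora, Calca and Ccl1. The windows of Gata3, Hs3st1 and Lmo4 did not hold these letters. A match describes the sequence and says nothing of binding.

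Beside markers, the leading genes of cluster 0 were Hba-a1, Hs3st1, Hes1, Gm20186, Ccl1 and Lmo4. Csf2 led with 740 CPM over both libraries against 17.9 CPM in the other clustered cells. Hs3st1, a heparan sulfate sulfotransferase gene, stood at 411 CPM, and Hes1, a transcriptional repressor gene induced by Notch signals, at 476 CPM against 19.5 in the other cells. Ccl1, which encodes the ligand of CCR8, stood at 364 CPM against 17.5, and Lmo4, a transcriptional cofactor gene, at 1485 against 127. The α-globin gene Hba-a1 stood at 371 CPM against 7.66. Of the 10 leading genes, Hba-a1 and Hes1 differed by 2-fold or more between the diets.

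For Gata3, Il1rl1, Il5, Csf2 and Calca the next highest cluster in both libraries was cluster 7, called Treg-like because its cells carried the regulatory T cell (Treg) markers (160 chow and 328 ketogenic cells). A UMI of the regulatory T cell marker Foxp3 was found in 30% of its chow and 30.5% of its ketogenic cells unthinned. Not all cells of cluster 7 are thus shown to be regulatory T cells. In cluster 7 Gata3 stood at 496 and 495 CPM on chow and ketogenic diet and Il1rl1 at 596 and 379 CPM. For the leading gene Lmo4 the next cluster was cluster 11, at 748 and 832 CPM. Klrg1, which encodes an inhibitory receptor of mature ILC2, stood at 549.5 [520.1 to 580.1] CPM in cluster 0 and 558 [494 to 628] in the Treg-like cells on chow, and at 579.9 [558 to 603] and 532 [494 to 571] on ketogenic diet. Its intervals overlapped between the clusters in both libraries. Areg, which encodes the repair factor amphiregulin, was higher in the Treg-like cells (1654 and 1451 CPM) than in cluster 0 (1443 and 1298 CPM).

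The effector markers set the clusters further apart. Il5 stood at 108 CPM [81.4 to 141] on chow and 169 [148 to 192] on ketogenic diet in the Treg-like cells, Csf2 at 116 and 182 CPM and Calca at 26.1 and 62.9 CPM, all below their level in cluster 0. Rora was next highest in cluster 11, the IL-17-type γδ T-like cells, at 421 and 311 CPM. The NK-like cluster 1 had Calca at 5.56 and 5.84 CPM and Il5 at 2.23 and 8.35 CPM.

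T cell transcripts were present at levels that differed by gene. Cd3e, a subunit gene of the T cell receptor complex, counted 43 and 91 UMIs on chow and ketogenic diet, at 18.1 CPM [13.1 to 24.4] and 20.9 [16.8 to 25.6]. Foxp3, the defining gene of regulatory T cells, counted 0 UMIs on chow, which allows up to 3, and 4 on ketogenic diet. Cd3g, another subunit gene, stood at 133 CPM [119 to 149] and 143 [132 to 155], and thinned shares of cells with its UMI were 10.1% [8.13 to 12.3] and 10.5% [8.92 to 12.3] (19.1% and 21.2% unthinned), against 6.21% [4.57 to 8.23] and 7.53% [6.02 to 9.29] in the NK-like cells. The receptor constant gene Trbc2 stood at 420.4 and 554 CPM, above the 358 and 439.8 CPM of the NK-like cells, and Trac at 29.9 and 24.3 CPM. Over the 14 T cell genes listed, the sums were 1436 and 1852 CPM, and of 9 compared between the diets 0 were called higher and 0 lower. With 10% of UMIs subtracted as free RNA, 3 of these 9 (Cd3d, Cd3e and Trac) were past 1.5-fold lower and 0 higher. Cd3d then kept 44.95 of 72 UMIs on chow and 0 of 113 on ketogenic diet, Trac 58.04 of 71 UMIs on chow and 8.22 of 106 on ketogenic diet and Cd3e 30.9 of 43 UMIs on chow and 20.3 of 91 on ketogenic diet. At least 3 UMIs of Cd3d, Cd3e and Trac together occurred in 18 of 854 chow cells (2.11%) and 17 of 1310 ketogenic cells (1.30%). These cells had a median of 16.5 and 15 UMIs of the ILC2 markers, against 9 and 10 over all cells of cluster 0. Without them, the ratios of the 7 markers kept their direction. Tbx21, the regulator gene of type 1 innate lymphoid cells, counted 10 and 25 UMIs.

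Single cells carried the markers unevenly. After each cell was thinned to 1000 UMIs, which left out no cell, 93.6% [91.7 to 95.1] of chow and 92.2% [90.6 to 93.6] of ketogenic cells had a UMI of at least 1 marker. Unthinned, 6 chow and 8 ketogenic cells had none of the 7, and 15 and 24 cells had all of them. Thinned shares with an Il1rl1 UMI were 53.4% [49.98 to 56.8] and 38.7% [36.05 to 41.4] on chow and ketogenic diet (84.4% and 74.96% unthinned), against 1.796% and 1.22% in the NK-like cells, whose median depths were 2296.5 and 3147 UMIs, and 49.4% [41.4 to 57.4] and 32.6% [27.6 to 37.99] in the Treg-like cells. Thinned shares with a Gata3 UMI were 40.98% [37.7 to 44.4] and 46.1% [43.4 to 48.9] (70.1% and 79.1% unthinned), against 7.46% and 8.38% in the NK-like cells, 38.1% [30.6 to 46.1] and 35.98% [30.8 to 41.4] in the Treg-like cells, and 0.977% and 1.41% in the type 1 dendritic (cDC1-like) cells of cluster 6, whose median depths were 7906 and 9922 UMIs. The intervals of cluster 0 and the Treg-like cells overlapped in both libraries for Il1rl1 and on chow for Gata3. The order of the diets in these thinned shares was that of the CPM for both genes.

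ILC2-like cells made up a larger share of the clustered cells in the ketogenic library. Because 2 of the leading genes differed between the libraries, the cells were clustered again without the 1140 genes that differed 2-fold or more within clusters. The matching cluster, which recovered 98.75% of cluster 0, held 19.8% [18.6 to 20.96] of the chow library and 25.6% [24.5 to 26.8] of the ketogenic one, and the ratio of these shares was 1.296 [1.19 to 1.41]. With the deposited clusters the shares were 19.2% [18.01 to 20.3] and 23.6% [22.4 to 24.7], with a ratio of 1.23 [1.13 to 1.34].

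The direction depended on the denominator. The macrophage-like cluster 3 and the unnamed cluster 8, in which Retnla was highest, held 859 and 362 chow cells against 145 and 47 ketogenic cells. Outside both, ILC2-like cells were 26.4% of the chow and 24.4% of the ketogenic library, with a ratio of 0.925 [0.848 to 1.01] whose interval includes 1. Over the lymphoid clusters 0, 1, 2, 4, 7 and 11 they were 37.1% [35.1 to 39.1] and 31.1% [29.8 to 32.6], with a ratio of 0.8396 [0.7696 to 0.916]. This denominator leaves out the B cell-like cluster 9, with 82 chow and 245 ketogenic cells. The lowest depth of a cluster 0 cell was greater in the ketogenic library than in the chow library. Among cells at or above this ketogenic minimum depth the ratio was 1.29 [1.18 to 1.42]. That kept 710 of 854 chow cells of cluster 0 and all 1310 ketogenic ones. Among cells of at least 3000 UMIs the ratio was 2.22 [1.91 to 2.58]. Within cluster 0 that depth was reached by 233 of 854 cells on chow and 750 of 1310 on ketogenic diet. These are shares of sorted cells and not cell numbers per tissue.

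Within cluster 0, 5402 genes had at least 100 UMIs over both libraries and were compared between the diets. The log2 ratio of CPM, ketogenic over chow with 0.5 added to each count, had a median of 0.08 and lay between -0.60 and 0.65 for the central 90% of genes. A gene is called higher or lower where the ratio passed 1.5-fold, with no test. On ketogenic diet 395 genes (7.31%) were called higher and 286 (5.29%) lower. At 2-fold 41 (0.759%) were higher and 60 (1.11%) lower. A ratio above 0 was found for 3127 of the 5402 genes. With the median ratio set to 0 the balance turned, with 251 genes called higher and 386 lower, and the calls of Ikzf3, Btg2, Dnajb1, Pnpla2, Uqcrc2 and Atp5b below were lost. Another setting, named below as without cells with UMIs of other lineages, dropped cells by transcripts and not by cell type. It left out cells with at least 2 UMIs of T cell receptor and Cd3 genes, or of macrophage, B or cDC1 markers. It kept 127 chow and 170 ketogenic cells. Lyz2, a macrophage marker among these genes, had a UMI in 74% of chow and 25.8% of ketogenic cells of cluster 0. In this setting the calls of Dgat1 (-0.50) and Atp5b (0.42) were lost too. So were those of Btg2 (0.57) and Uqcrc2 (0.56) with the mean over cells and of Ikzf3 (0.58) with free RNA subtracted. The call of Btg2 was also lost without cells with UMIs of other lineages (0.58). That of Dnajb1 (0.55) was lost among cells at or above the ketogenic minimum depth. This depth limit left out chow cells alone and kept 710 of them. The counts in the gene lists below are read against these shares of all genes, and fold differences are ketogenic over chow unless stated.

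Among the 15 secreted factor genes compared, of 20 listed, 2 were called higher (Calca and Xcl1) and 1 lower (Cxcl2), and the median log2 ratio was 0.13. Calca had a log2 ratio of 0.74 [0.60 to 0.88], which is 1.67-fold, and its ratio was above 0 in 8 of 9 other clusters. In the 127 chow and 170 ketogenic cells left after cells with 2 UMIs of other lineages were taken out, it was 0.39, under 1.5-fold. Thinned shares of cells with a Calca UMI were 13.6% [11.4 to 16.1] and 17.9% [15.9 to 20.1] on chow and ketogenic diet (22.8% and 27.9% unthinned), against 0.414% and 0.471% in the NK-like cells.

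Among the type 2 cytokine genes, Il5 and Il13 had log2 ratios of opposite sign. Il5, with 1014 and 1319 UMIs, had a log2 ratio of -0.49 [-0.61 to -0.38], 1.41-fold higher on chow. Thinned shares with an Il5 UMI were 16.7% [14.3 to 19.4] and 11.3% [9.63 to 13.1] (26% and 21.1% unthinned), against 0.138% and 0.848% in the NK-like cells. Il13, with 248 and 560 UMIs, stood at 104 CPM [91.7 to 118] on chow and 128 [118 to 139.5] on ketogenic diet, with intervals that just overlapped. A single chow cell held 32.3% of the chow Il13 UMIs, and without the top cell of each library the log2 ratio was 0.69 in place of 0.30. The counts of Il4 (23 and 31 UMIs) and Il9 (1 and 8 UMIs) were too small to order the diets.

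The other growth factors stayed under 1.5-fold. Csf2 had a log2 ratio of 0.42 [0.33 to 0.51] and Areg, at 1443 CPM [1395 to 1492] on chow and 1298 [1265 to 1333] on ketogenic diet, of -0.15 [-0.21 to -0.09]. Tnfsf11, which encodes RANKL, stood at 170.3 CPM [154 to 188] on chow and 209 [196 to 223] on ketogenic diet. Lif, an IL-6 family cytokine gene, stood at 120.2 CPM [107 to 135] on chow and 87.4 [78.8 to 96.6] on ketogenic diet. Csf2 and Tnfsf11 were thus higher and Areg and Lif lower in the ketogenic library, with intervals apart.

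Of the chemokine genes, Cxcl2, which encodes a neutrophil attractant, stood at 1253 CPM [1209 to 1299] on chow and 768 [742 to 794] on ketogenic diet. Its log2 ratio was -0.71, and it was below 0 in 12 of 12 other clusters as well, from -3.08 to -0.44. The call was lost with 10% of UMIs subtracted as free RNA (-0.54) and without cells with UMIs of other lineages (-0.07). Thinned shares with a Cxcl2 UMI were 39.6% [36.3 to 42.95] and 22.8% [20.6 to 25.2] (61.5% and 35.8% unthinned), against 20.6% and 2.92% in the NK-like cells (42.1% and 9.04% unthinned). Ccl1 stood at 448 CPM [421 to 476] on chow and 319 [302 to 336] on ketogenic diet, and Xcl1, the lymphotactin gene, at 14.7 CPM [10.2 to 20.5] and 23.6 [19.3 to 28.6]. Ccl1 was higher on chow, and the Xcl1 intervals overlapped. Thinned shares with an Xcl1 UMI were 1.41% [0.728 to 2.44] and 2.29% [1.55 to 3.25] (3.63% and 7.18% unthinned), within the intervals of 0.977% [0.202 to 2.83] and 1.41% [0.459 to 3.26] in the cDC1-like cells, so Xcl1 is read here as background and its call as no result on these cells. The NK-like cells held Xcl1 at 1232 and 1269.7 CPM, and with free RNA subtracted cluster 0 kept 0 of its Xcl1 UMIs in either library. Its ratio was above 0 in 10 of 11 other clusters.

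**Figure D2:**
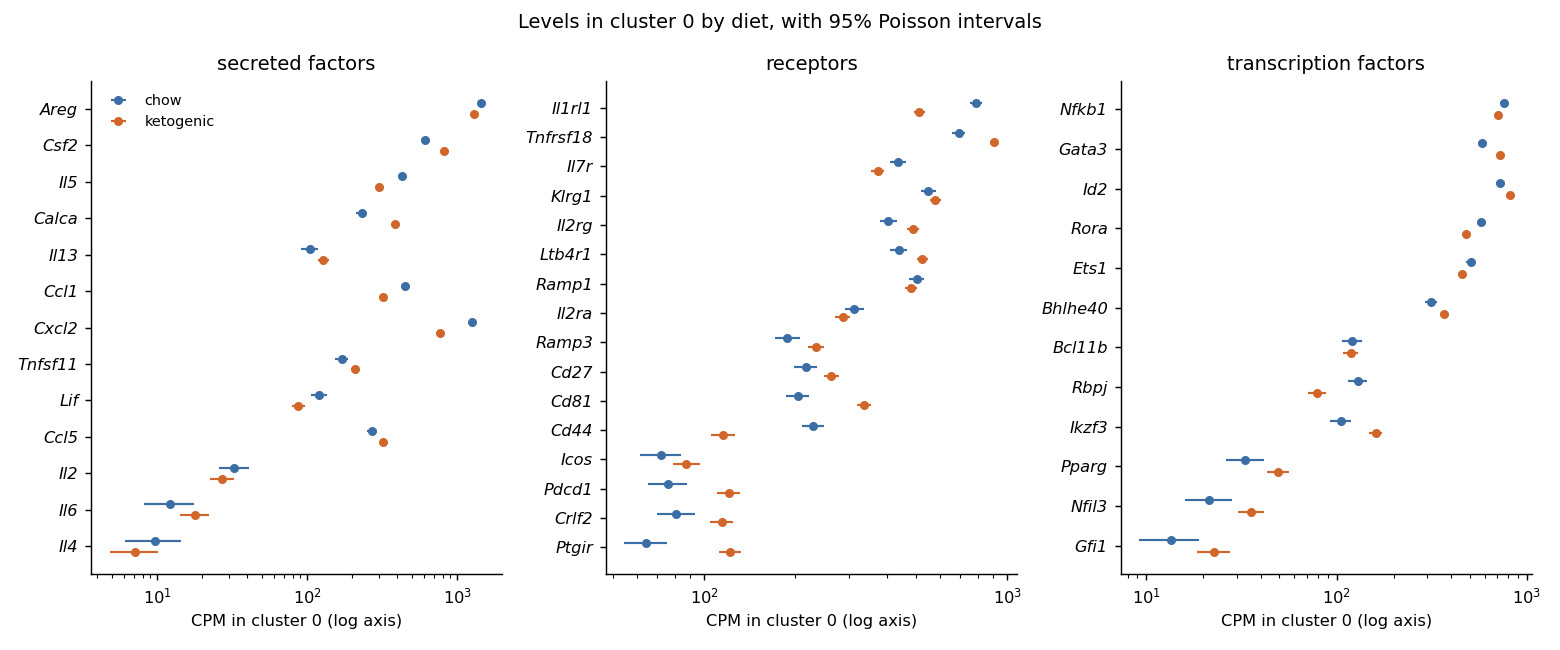
Level in cluster 0 (CPM, log axis) of secreted factors, receptors and transcription factors in the chow and ketogenic libraries, with points for the summed level and bars for 95% Poisson intervals. Calca lies apart at 231 and 385 CPM on chow and ketogenic diet, while the intervals of Klrg1, at 549.5 and 579.9 CPM, overlap.

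Of the 16 alarmin and cytokine receptor genes compared, 0 were called higher and 2 lower (Il1rl1 and Tgfbr2), with a median of -0.01. Il1rl1 had a log2 ratio of -0.62 [-0.71 to -0.54], 1.54-fold higher on chow. It was below 0 in 9 of 10 other clusters too, among them the Treg-like cells with -0.65. Without cells with UMIs of other lineages it was -0.56, just under 1.5-fold. Tgfbr2, a TGF-β receptor subunit gene, stood at 65.2 CPM [55.3 to 76.3] on chow and 36.7 [31.2 to 42.9] on ketogenic diet.

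The genes of the alarmin receptors did not go together. Crlf2, which encodes the TSLP receptor chain, stood at 80.7 CPM [69.7 to 92.98] on chow and 114 [104 to 125] on ketogenic diet, a log2 ratio of 0.50 that stayed under 1.5-fold and was above 0 in 12 of 12 other clusters. Il17rb, an IL-25 receptor subunit gene, counted 28 and 39 UMIs. Il1rl1 was thus lower and Crlf2 higher on ketogenic diet, and Il17rb was too thinly counted to order. Il7r, the gene of the receptor for the survival factor IL-7, stood at 435 CPM [409 to 462] on chow and 375 [357 to 393] on ketogenic diet.

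Of the 16 costimulatory and inhibitory receptor genes compared, 2 were called higher (Pdcd1 and Cd81) and 1 lower (Cd44), with a median of 0.28. Pdcd1, which encodes the inhibitory receptor PD-1, stood at 75.7 CPM [65.02 to 87.6] on chow and 121 [111 to 131] on ketogenic diet and was above 0 in 7 of 7 other clusters. Cd81, a tetraspanin gene, stood at 204 CPM [186 to 222] on chow and 337 [320.2 to 355] on ketogenic diet. Cd44, which encodes a hyaluronan receptor, stood at 228 CPM [209.5 to 248] on chow and 115 [106 to 126] on ketogenic diet, a log2 ratio of -0.98 [-1.16 to -0.81], and was below 0 in 12 of 12 other clusters. Klrg1 had a log2 ratio of 0.08 [-0.02 to 0.18], an interval that includes 0. Icos, which encodes a costimulator of ILC2, stood at 71.9 CPM [61.5 to 83.5] on chow and 87.4 [78.8 to 96.6] on ketogenic diet, with overlapping intervals.

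Among the 8 neural and lipid mediator receptor genes compared, of 23 listed, Ptgir was called higher and Calcrl lower, with a median of 0.28. Ptgir, which encodes the prostacyclin receptor, stood at 64.3 CPM [54.5 to 75.4] on chow and 122 [112 to 133] on ketogenic diet. CGRP, the Calca product, is sensed by a receptor built of the Calcrl and Ramp1 products. Calcrl stood at 30.3 CPM [23.7 to 38.1] on chow and 16.97 [13.3 to 21.3] on ketogenic diet, and Ramp1 at 503 CPM [475 to 532] and 482 [462 to 503]. The ligand gene was higher and Calcrl lower on ketogenic diet, and the Ramp1 intervals overlapped. Nmur1, which encodes a neuromedin U receptor known from ILC2 of other tissues, counted 2 and 13 UMIs.

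Of the 21 transcription factor genes compared, 3 were called higher (Nfil3, Gfi1 and Ikzf3) and 1 lower (Rbpj), with a median of -0.09. Gata3 had a log2 ratio of 0.31 [0.22 to 0.40] and Rora of -0.27 [-0.37 to -0.17], both under 1.5-fold. Nfil3, needed early in innate lymphoid development, stood at 21.4 CPM [15.96 to 28.2] on chow and 35.5 [30.2 to 41.6] on ketogenic diet, and Ikzf3, which encodes Aiolos, at 106 CPM [92.9 to 119] and 160.3 [149 to 173]. Gfi1, a repressor gene that sustains ILC2 identity, stood at 13.4 CPM [9.202 to 18.99] on chow and 22.7 [18.5 to 27.6] on ketogenic diet, with overlapping intervals. Pparg, a lipid-responsive nuclear receptor gene, stood at 33.2 CPM [26.3 to 41.4] on chow and 49.3 [42.9 to 56.4] on ketogenic diet, just under 1.5-fold with a log2 ratio of 0.56. Id2, a regulator shared by innate lymphoid cells, stood at 725 and 817 CPM and Bcl11b, which sustains ILC2, at 121 and 119 CPM.

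Of the 16 tissue retention and egress genes compared, 0 were called higher and 2 lower (Cxcr4 and Itgal), with a median of 0.18. Cxcr4, a retention receptor gene, stood at 84.1 CPM [72.8 to 96.6] on chow and 49.5 [43.2 to 56.6] on ketogenic diet and was below 0 in 12 of 12 other clusters. Itgal, an LFA-1 integrin subunit gene, stood at 129.9 CPM [116 to 145] on chow and 78.9 [70.8 to 87.7] on ketogenic diet. Ccr8, the receptor gene for the Ccl1 product, stood at 81.6 CPM [70.5 to 93.9] on chow and 117 [108 to 128] on ketogenic diet. Ccr8 was thus higher and Ccl1 lower on ketogenic diet, each by less than 1.5-fold.

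Of the 10 leading genes, Hba-a1 had the highest ratio between the diets. Hba-a1 (chr11:32283511-32284465, plus strand) counted 249 and 2250 UMIs, at 105 CPM [92.1 to 118] on chow and 516 [495 to 538] on ketogenic diet, which is 4.93-fold (log2 ratio 2.30 [2.11 to 2.50]). Hba-a2, the other adult α-globin gene, counted 38 and 370 UMIs, at 15.98 CPM [11.3 to 21.9] on chow and 84.9 [76.4 to 93.98] on ketogenic diet, which is 5.31-fold. The β-globin genes, which red cell precursors express together with α-globin, counted 1 and 3 UMIs (Hbb-bs) and 0 and 2 UMIs (Hbb-bt). The α-globin UMIs thus stood nearly without β-globin in both libraries. The promoter windows of the α-globin genes aligned with 247 identical bases, 0 mismatches and 6 gap positions, and the genes are near-identical copies, so how UMIs divide between them is uncertain.

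Hba-a1 was spread over many cells. Unthinned, 132 of 854 chow and 664 of 1310 ketogenic cells had a UMI (15.5% and 50.7%), and thinned shares were 7.49% [5.82 to 9.47] and 28.9% [26.4 to 31.4]. Thinned shares were 0.138% and 0.471% in the NK-like cells, 0.326% and 0.563% in the cDC1-like cells and 0.625% [0.0158 to 3.43] and 5.49% [3.28 to 8.54] in the Treg-like cells. The intervals of the ILC2-like cells lay above those of the other types in both libraries, and those of NK-like and cDC1-like cells overlapped. The level in the Treg-like cells was 8.03 and 87.7 CPM, and outside clusters 0 and 7 the highest was 21.3 CPM in either library. The diet ratio of Hba-a1 was above 0 in 3 of 3 other clusters as well, from 1.34 to 3.28. In the Treg-like cells it was 3.28 [2.06 to 5.35], from 4 and 124 UMIs, an interval that holds the value of cluster 0.

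Hes1 (chr16:30064384-30067796, plus strand), the other leading gene that differed 2-fold, stood at 710.1 CPM [677 to 745] on chow and 349 [331 to 367] on ketogenic diet, a log2 ratio of -1.03 [-1.13 to -0.93]. Thinned shares with a Hes1 UMI were 26.1% [23.2 to 29.2] and 13.97% [12.1 to 15.97] (35.5% and 21.8% unthinned), against 2.07% and 1.695% in the NK-like cells. In the Treg-like cells the level was 54.2 and 53.7 CPM, a log2 ratio of -0.03. Hes1 was below 0 in 8 of 9 other clusters, with a median of -0.47 and a lowest value of -2.20. A list of Notch pathway genes was added after the Hes1 value was seen. It also holds Furin, whose product cleaves the Notch receptor precursor, and Spry2, which is not itself a Notch pathway gene.

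Of the 6 genes of that list compared, of 13 listed, 0 were called higher and 4 lower (Hes1, Notch2, Rbpj and Spry2), with a median of -0.76. These 4 include Hes1, whose value prompted the list. Furin, with 3733 and 5083 UMIs on chow and ketogenic diet, was not called. Notch2, a receptor gene, stood at 200.5 CPM [183 to 219] on chow and 114 [104 to 124] on ketogenic diet, and Rbpj, which encodes the nuclear mediator of Notch signals, at 129 CPM [115 to 144] and 78.9 [70.8 to 87.7]. Both were lower on ketogenic diet with intervals apart. Rbpj was below 0 in 12 of 12 other clusters and Notch2 in 11 of 12 other clusters, and the list's median was above 0 in 0 of 12 other clusters.

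Of 15 glycolysis genes compared, of 19 listed, 7 were called higher (Slc2a1, Gpi1, Pfkl, Aldoa, Eno1, Pkm and Ldhb) and 0 lower, with a median of 0.58, against 7.31% of all genes called higher. Pkm, which encodes pyruvate kinase, stood at 223 CPM [205 to 243] on chow and 418 [399 to 438] on ketogenic diet, Aldoa (aldolase) at 468 CPM [441 to 497] and 766 [740.4 to 793] and Eno1 (enolase) at 217 CPM [199 to 236] and 357 [339 to 375]. The glucose transporter gene Slc2a1 stood at 17.7 CPM [12.7 to 23.9] on chow and 30.1 [25.1 to 35.7] on ketogenic diet. Ldha, a lactate dehydrogenase gene, at 800.5 and 1130.4 CPM, and Gapdh, at 487 and 654 CPM, stayed under 1.5-fold. Pgk1, with a log2 ratio of -0.18, was the only one of the 15 below 0. The list's median was above 0 in 12 of 12 other clusters as well, from 0.08 to 1.09. With the mean over cells, each cell weighted alike, the call of Ldhb was lost (0.54).

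The ketone body list bears on the diet most directly. Of 12 genes listed, 5 had enough UMIs, all had a ratio above 0, as had 3127 of all 5402 genes, and 0 were called, with a median of 0.44. Oxct1, which encodes the enzyme that activates ketone bodies for oxidation, stood at 30.3 CPM [23.7 to 38.1] on chow and 41.8 [35.9 to 48.3] on ketogenic diet. Acat1, whose product acts next in that pathway, stood at 76.5 CPM [65.8 to 88.5] on chow and 91.8 [82.98 to 101] on ketogenic diet. The intervals overlapped for both. Bdh1, which encodes the enzyme that interconverts the main ketone bodies, counted 12 and 47 UMIs, below the minimum, at 5.04 CPM [2.61 to 8.81] and 10.8 [7.92 to 14.3]. Hcar2, which encodes a β-hydroxybutyrate receptor, counted 3 and 0 UMIs.

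Of the 19 fatty acid uptake and oxidation genes compared, 4 were called higher (Acads, Hadhb, Etfdh and Pnpla2) and 3 lower (Cpt1a, Dgat1 and Plin2), with a median of 0.14. Hadhb, a subunit gene of the mitochondrial trifunctional protein, stood at 49.2 CPM [40.7 to 58.95] on chow and 83.95 [75.6 to 93.01] on ketogenic diet, and Acads, an acyl-CoA dehydrogenase gene, at 18.5 CPM [13.4 to 24.8] and 32.8 [27.6 to 38.6]. Both act inside mitochondria on fatty acids already taken in. Cpt1a, which encodes the carnitine transferase that admits fatty acids to mitochondria, stood at 40.8 CPM [33.1 to 49.8] on chow and 22.02 [17.8 to 26.9] on ketogenic diet. Plin2, a lipid droplet coat gene, stood at 169 CPM [153 to 187] on chow and 93.8 [84.9 to 103] on ketogenic diet, and Dgat1, a triglyceride synthesis gene, at 312 CPM [290.3 to 336] and 189.9 [177 to 203]. Cpt1a was below 0 in 10 of 10 other clusters and Plin2 in 12 of 12 other clusters. Ppara, Ppargc1a and the muscle isoform gene Cpt1b counted 0 UMIs in both libraries.

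Of the 10 arginine and polyamine genes compared, Ass1 was called higher and Slc7a1 lower, with a median of 0.13. Ass1, which acts in the recycling of citrulline to arginine, stood at 40.4 CPM [32.7 to 49.3] on chow and 86.02 [77.5 to 95.2] on ketogenic diet, which is 2.13-fold, and was above 0 in 11 of 12 other clusters. Slc7a1, an arginine importer gene, stood at 40.8 CPM [33.1 to 49.8] on chow and 23.2 [18.9 to 28.1] on ketogenic diet. All 38 nuclear oxidative phosphorylation genes were compared, 3 were called higher (Sdha, Uqcrc2 and Atp5b) and 0 lower, and the median was -0.07.

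**Figure D3:**
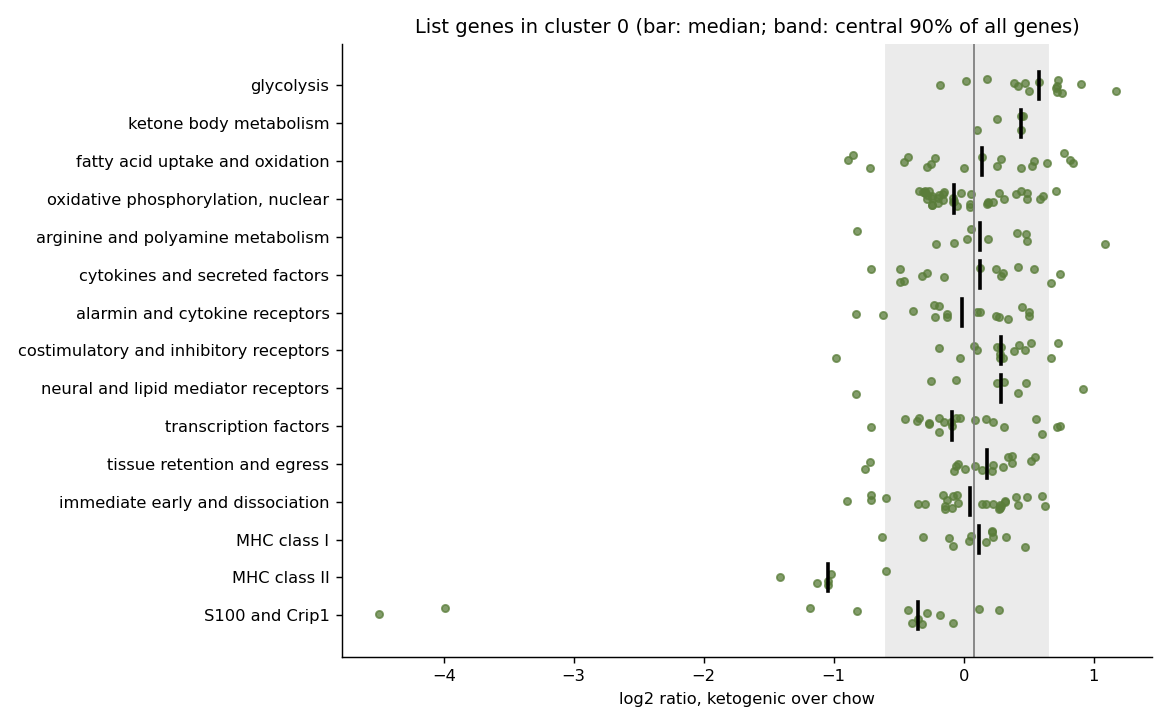
Log2 ratio, ketogenic over chow, of each gene with at least 100 UMIs in cluster 0, by gene list, with black bars for list medians and a grey band for the central 90% of all 5402 genes (-0.60 to 0.65). Glycolysis sits to the right with a median of 0.58 and MHC class II to the left with a median of -1.04.

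All 6 MHC class II genes compared, of 7 listed, were called lower on ketogenic diet, with a median of -1.04, against 5.29% of all genes called lower. MHC class II molecules present antigen, mainly on dendritic cells, B cells and macrophages, and ILC2 can carry them. Cd74, the invariant chain gene, stood at 1435 CPM [1388 to 1484] on chow and 697 [672 to 722] on ketogenic diet, and H2-Aa at 620.5 CPM [589 to 653] and 302 [286 to 319]. In the NK-like cells Cd74 stood at 1722 and 768 CPM, above its level in cluster 0 in both libraries, and in the cDC1-like cells at 32627 and 37782 CPM. When 10% of the UMIs of cluster 0 were subtracted in proportion to each library's total profile, as a model of free RNA, 5 of the 6 genes kept fewer than 20 UMIs and gave no ratio, and H2-Ab1 kept UMIs in the chow library alone. Of the 12 MHC class I genes compared, 0 were called higher and 1 lower (Nlrc5), with a median of 0.12. With the mean over cells the calls of Nlrc5 (-0.58) and H2-DMa (-0.57) were lost, and that of H2-DMa also without its top cell (-0.58).

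Macrophage transcripts moved with the class II genes. Lyz2, a lysozyme gene of macrophages, stood at 544 CPM [514 to 574] on chow and 109 [99.4 to 119] on ketogenic diet in cluster 0. Its thinned shares of cells were 40.6% and 8.86% there (74% and 25.8% unthinned), 41.4% and 8.19% in the NK-like cells and 43.1% and 8.84% in the Treg-like cells. These lymphoid cells thus had like shares within each library. Over all 15 macrophage and monocyte genes listed, the summed level in cluster 0 was 1841 CPM on chow and 979 on ketogenic diet, and of the 5 compared 4 were called lower (Lyz2, Apoe, Retnla and Cd14). The defining genes C1qa, C1qb and C1qc counted 16 and 8, 48 and 8 and 10 and 6 UMIs on chow and ketogenic diet, respectively. The part of free macrophage RNA in the class II difference was not tested beyond that subtraction.

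Of the 10 genes with the lowest ratios in cluster 0, all but Gm10800 and Mt1 are known from macrophages, monocytes or neutrophils. They were S100a9 (-4.50), S100a8 (-3.99), Fn1 (-3.59), Ccl6 (-2.89), Cd14 (-2.77), Gm10800 (-2.59), Retnla (-2.45), Ccl9 (-2.34), Lyz2 (-2.32) and Mt1 (-2.30). Fn1, Ccl6, Ccl9, Gm10800 and Mt1 were below 0 in every other cluster with enough UMIs. S100a8 counted 151 and 17 UMIs, of which 1 chow cell held 82.8% of the chow UMIs. Without the top cell of each library the log2 ratio of S100a8 was -1.56 and that of S100a9 -2.07. A single ketogenic cell held 45.8% of the ketogenic Retnla UMIs, and without the top cells the ratio was -3.21. The Retnla ratio was -1.03 with free RNA subtracted. With free RNA subtracted 0 of these 10 genes were among the 10 lowest, and without cells with UMIs of other lineages 1 was. Genes with too few UMIs left had no place in these rankings, and only 981 genes reached the minimum in the latter. That setting also left out cells by their Lyz2 UMIs. The counts thus do not tell whether a ratio moved, and the source of the low ratios was not tested.

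The genes with the highest ratios were Tpsb2, Cma1, Hba-a2, Hba-a1, Gm17056 (2.03), Dbp (1.78), Zbtb25 (1.73), Hgsnat (1.67), Nmrk1 (1.42) and Mycn (1.42). Both ends of the ranking depended on the minimum. At minimums of 50 and 200 UMIs and with no minimum, 7, 3 and 2 of the 10 highest stayed. Of the 10 lowest, 5, 5 and 0 stayed. Of the 10 highest, 8 stayed with free RNA subtracted and 1 without cells with UMIs of other lineages, where few genes had a value. Tpsb2 (0 and 151 UMIs) and Cma1 (3 and 123 UMIs) are mast cell protease genes. A single ketogenic cell of 2673 UMIs held 351 UMIs of mast cell genes and 4 of the ILC2 markers, and without it neither gene reached 100 UMIs. Zbtb25, a zinc finger gene, counted 19 and 118 UMIs and was above 0 in 9 of 9 other clusters. Mycn, a growth regulator of the Myc family, counted 19 and 95 UMIs. Gm17056 is annotated as antisense, and whether strand was used in counting is not given in the sources used here, so its UMIs cannot be told apart from those of its partner. Iglc1, an immunoglobulin light chain gene outside the ranking, counted 29 and 460 UMIs.

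**Figure D4:**
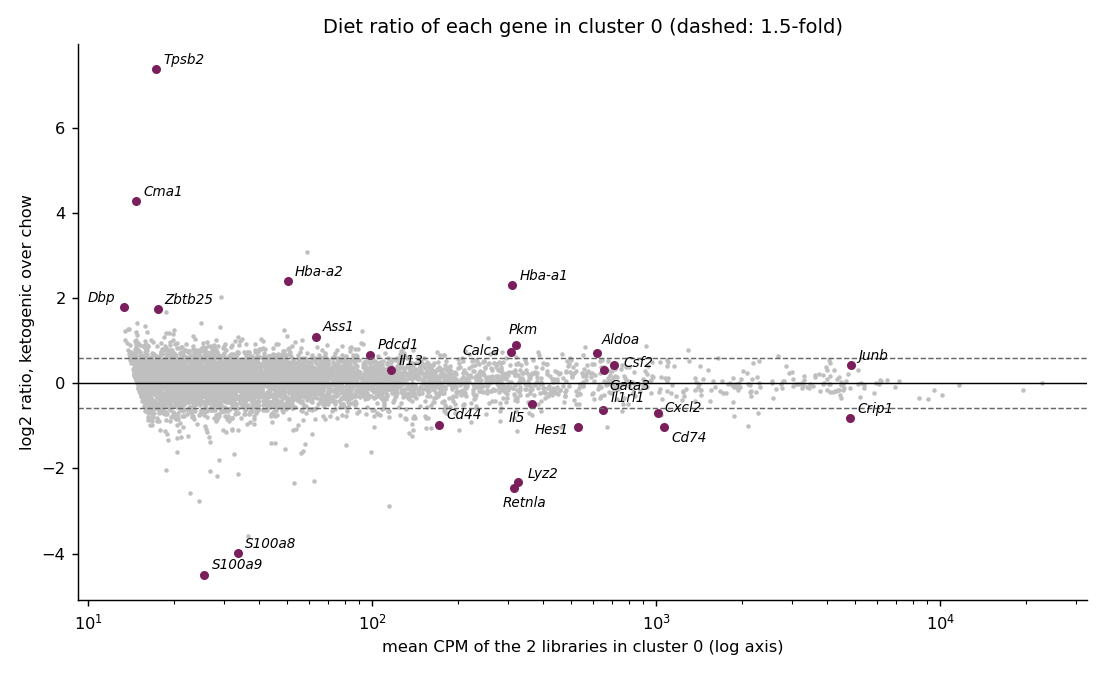
Log2 ratio, ketogenic over chow with 0.5 added to each count, against the mean CPM of both libraries (log axis) for the 5402 genes with at least 100 UMIs in cluster 0, with dashed lines at 1.5-fold and some genes named. Hba-a1 and Hba-a2 lie at 2.30 and 2.39, Hes1 at -1.03, and Tpsb2 and Cma1, which 1 cell supplied almost entirely, lie above them.

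Dbp, a clock output gene, counted 14 and 91 UMIs, at 5.89 CPM [3.22 to 9.88] on chow and 20.9 [16.8 to 25.6] on ketogenic diet, and was above 0 in 5 of 5 other clusters. Of the 7 genes compared in a list of clock genes added after that value was seen, 1 was called higher (Dbp) and 1 lower (Per1), with a median of 0.08, which is that of all genes. Per1, a light-responsive and stress-responsive clock gene, stood at 74.8 CPM [64.2 to 86.7] on chow and 49.3 [42.9 to 56.4] on ketogenic diet. The time of day of tissue collection is not given in the sources used here.

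Of the 13 genes in a list of S100 family genes that also holds Crip1 and Lgals3, 0 were called higher. Called lower were 4 (S100a8, S100a9, Crip1 and Lgals3), and the median was -0.35. The top chow cell of each gene held 82.8% of the S100a8 and 83.8% of the S100a9 chow UMIs. Crip1, a LIM domain protein gene, stood at 6141 CPM [6042 to 6241] on chow and 3484 [3429 to 3539.9] on ketogenic diet and was below 0 in 12 of 12 other clusters, from -1.28 to -0.32. The list's median was above 0 in 0 of 12 other clusters.

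Of the 28 immediate early and dissociation genes compared, 2 were called higher (Btg2 and Dnajb1) and 4 lower (Fosl2, Egr1, Nr4a3 and Ier3), with a median of 0.05. The call of Ier3 was lost with free RNA subtracted (0.13), and those of Fosl2 (-0.50) and Egr1 (0.00) without cells with UMIs of other lineages. Fos (674 and 759 CPM) and Junb (4167 and 5566 CPM), which report recent stimulation or tissue digestion, stayed under 1.5-fold. Nr4a3, a nuclear receptor gene induced by receptor signalling, stood at 367 CPM [344 to 393] on chow and 198 [184 to 211] on ketogenic diet and was below 0 in 12 of 12 other clusters. Of 11 interferon response genes compared, Zbp1 was called higher and Ifi27l2a lower, and of 11 cell cycle genes 0 were called higher and 1 lower (Stmn1). Mki67, a gene of dividing cells, counted 14 and 10 UMIs.

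Transcripts of several secreted factors were concentrated in few cells, at UMI totals on chow like those of identity genes (Il5 1014, Ccl1 1065, Csf2 1443, Gata3 1387 and Il1rl1 1880). The 86 chow cells with most UMIs of a gene, about 10% of cluster 0, held 88.8% of the Ccl1 UMIs and 78.5% of the Il5 UMIs. The 131 ketogenic cells with most of them held 93.02% and 87.3%. Il13 was found in 53 chow and 102 ketogenic cells, too few for this measure. For Csf2 these shares were 68.4% and 67.99% and for Areg 57.1% and 57.3%. For Gata3 they were 34.1% and 32.6% and for Il1rl1 27.4% and 29.4%. For Hes1 they were 65.1% and 84.01%. The measure moves with the share of cells that had a UMI at all, which was 26% and 21.1% for Il5, 21.1% and 17.4% for Ccl1, 35.5% and 21.8% for Hes1 and 70.1% and 79.1% for Gata3. In cells with an Il5 UMI the median was 3 UMIs on chow and 2 on ketogenic diet, and the top cell had 34 and 56.

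In most cells few of the effector transcripts Il5, Il13, Csf2, Calca and Areg were detected. After thinning, 37.5% of chow and 37.4% of ketogenic cells had none of the 5. A further 35.6% and 36.03% had 1, and 19.3% and 18.7% had 2. Each of these thinned shares differed by less than 1 percentage point between the libraries. Unthinned, 22.8% of chow and 21.2% of ketogenic cells had none, and a cell without a UMI may still carry the transcript. Il13 was found beside Il5 more often than Il5 was found in the rest: of the thinned cells with an Il13 UMI, about 30 on chow and 59 on ketogenic diet, 49.3% and 35.3% also had Il5, against 15.5% and 10.1% of the cells without Il13. Of the thinned cells with Il5, 33.9% and 42.3% also had Csf2, against 20.9% and 23.6% of the rest. For Calca the shares lay closer, with 13.4% of the cells with Il5 against 13.6% of the rest on chow, and 19.7% against 17.7% on ketogenic diet. Cells with an Il5 UMI were deeper before thinning, with medians of 2942 against 2482 UMIs on chow and 3663.5 against 3038.5 on ketogenic diet, and the part of depth in these overlaps was not tested.

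**Figure D5:**
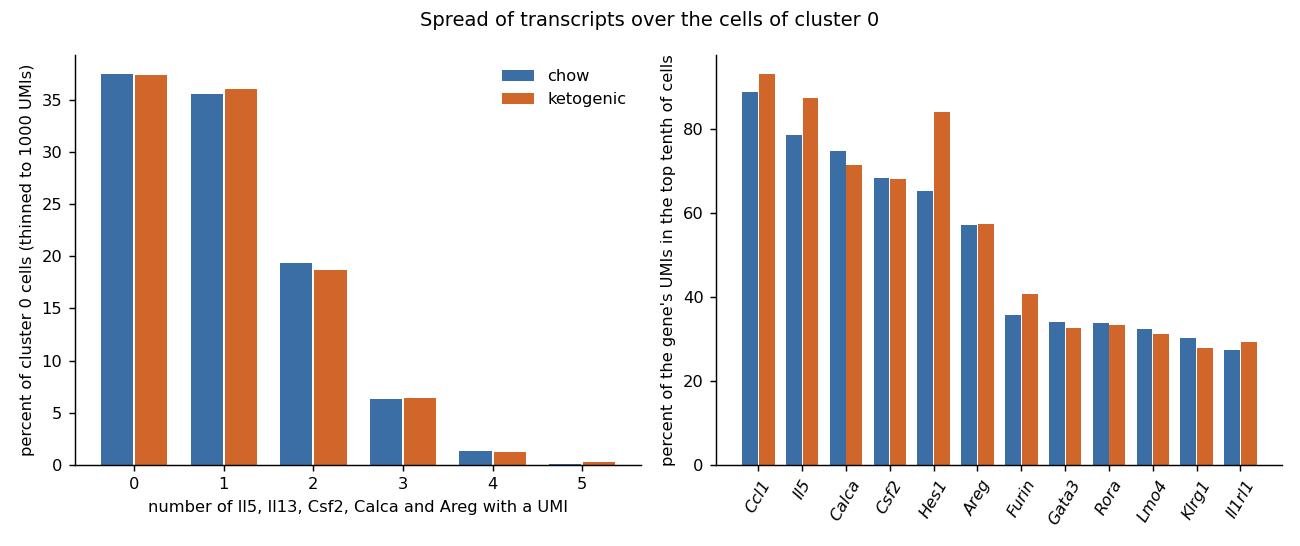
Left, percent of cluster 0 cells by how many of the genes Il5, Il13, Csf2, Calca and Areg had a UMI after thinning to 1000 UMIs. Right, percent of each gene's UMIs held by the 86 chow or 131 ketogenic cells with most of them, which on chow runs from 88.8% for Ccl1 down to 27.4% for Il1rl1.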

How the data were processed

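The authors deposited 1 matrix of raw UMI counts per library and 1 table of cluster numbers at resolution 0.5. Cell Ranger, Seurat and the mm10 build are named per the submitters' processing notes, with no versions given. The table covers 10017 of 10159 cells, and the 142 cells outside it all had over 5% mitochondrial UMIs. The cell filter is not given in the sources used here. Counts were summed per cluster and library and scaled to 1000000, and no test was run because each diet has 1 library. Library totals were 21570910 (chow) and 26041785 UMIs (ketogenic). Genes needed 100 UMIs over both libraries in cluster 0. Thinned shares are exact hypergeometric expectations at 1000 UMIs per cell. The members, marker lists and gene lists were chosen with earlier results of these data known, and the clock list and the Notch and Furin list were added after their leading values were seen. Genes named are the 7 markers, the 10 leading genes, the 10 highest and 10 lowest ratios (mitochondrial, immunoglobulin and T cell receptor genes left out of that ranking) and list members with at least 20 UMIs. Iglc1 falls outside this rule and was named after its value was seen, as were list genes at 0 or with fewer UMIs. Some list members are not reported here. Cells were reclustered with Leiden in scanpy 1.11.5 (2000 variable genes, 30 components, 15 neighbours, resolution 0.5). Scrublet marked 6 of 4545 chow and 2 of 5614 ketogenic cells, 0 of them in cluster 0, too few to count as working, so no doublets were removed. Promoter windows come from the RefSeq table of GRCm38.p6. Gene IDs were matched to the annotation for 28416 of 28692. Python 3.11.15, numpy 2.4.6, scipy 1.17.1 and pandas 2.3.3 were used, and the ratios were checked on simulated counts. Alternatives were other minimums, added counts, scalings, depths, free RNA subtraction and cells left out.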

Additional observations from a re-analysis of the deposited data

Results flagged for a closer look

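Of 299 named genes with at least 20 UMIs in both clusters, 8 differed between the diets in opposite directions in the ILC2-like and the Treg-like cells. Their counting intervals lay away from 0 in both. The named genes were chosen for this report, and no share over all genes stands beside this count. Values are log2 ratios of ketogenic over chow. For Il5 the ratio was -0.49 [-0.61 to -0.38] in cluster 0 and 0.63 [0.21 to 1.09] in cluster 7 (54 and 239 UMIs there). For the leading gene Hs3st1 the ratio was -0.24 [-0.35 to -0.12] in cluster 0 and 1.18 [0.41 to 2.15] in cluster 7 (14 and 93 UMIs there). For Nfkb1, a subunit gene of NF-κB, the ratio was -0.10 [-0.18 to -0.01] in cluster 0 and 0.28 [0.04 to 0.54] in cluster 7 (172 and 594 UMIs there). For the cytotoxic granule gene Nkg7 the ratio was -0.45 [-0.63 to -0.27] in cluster 0 and 0.45 [0.24 to 0.67] in cluster 7 (230 and 895 UMIs there). Nkg7 stood at 188 and 138 CPM in cluster 0, against 4143 CPM over both libraries in the NK-like cells. With free RNA subtracted its ratio in cluster 0 was -1.99. For the interferon response gene Isg15 the ratio was -0.27 [-0.51 to -0.03] in cluster 0 and 0.58 [0.07 to 1.16] in cluster 7 (37 and 159 UMIs there). For the immediate early gene Fos the ratio was 0.17 [0.09 to 0.26] in cluster 0 and -0.21 [-0.37 to -0.05] in cluster 7 (440 and 1079 UMIs there). For Klf2, a transcription factor gene of lymphocyte egress, the ratio was 0.23 [0.09 to 0.37] in cluster 0 and -0.30 [-0.48 to -0.12] in cluster 7 (360 and 829 UMIs there). For the vimentin gene Vim the ratio was 0.12 [0.05 to 0.19] in cluster 0 and -0.30 [-0.41 to -0.19] in cluster 7 (917 and 2115 UMIs there). The Vim interval in cluster 0 holds 0.08, the median of all genes compared there. Il5, Hs3st1, Nfkb1, Nkg7 and Isg15 were lower on ketogenic diet in cluster 0 and higher in cluster 7, and Fos, Klf2 and Vim the reverse. The difference between the clusters was not tested, since each diet has 1 library.

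Cells that the deposited table leaves out also carried ILC2 markers. At least 3 UMIs of the 7 markers were found in 16 of 87 such chow cells (18.4% [10.9 to 28.1]) and 13 of 55 such ketogenic cells (23.6% [13.2 to 37.02]). These cells enter no share or sum above.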

How the results depend on the processing

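Of the summary results, 47 alternative values stayed close to the reported one, 23 moved and 2 reversed. The reversals were the share ratio over the lymphoid clusters other than the B cell-like cluster 9 (0.8396) and outside clusters 3 and 8 (0.9252). Among cells of at least 3000 UMIs the share ratio moved to 2.218, and among cells at or above the ketogenic minimum depth it was 1.29. The 395 genes called higher became 251 after scaling by the median ratio (a shift of 0.08), which took the 286 called lower to 386, and 656 at a minimum of 50 UMIs, 200 at 200 UMIs and 2851 with no minimum, and those called lower became 539, 142 and 3273 at these minimums. At 2-fold the 41 higher became 109, 16 and 1014, and the 60 lower 129, 30 and 1962. Leaving out cells with 2 UMIs of other lineages kept 127 chow and 170 ketogenic cells and 981 genes, and gave 81 higher, 52 lower, 7 higher at 2-fold and 13 lower at 2-fold. There Calca stood at 0.39 and Il5 at -0.97. List genes called lower went from 29 to 44 at a minimum of 20 UMIs. The share of cells with any marker was 99.3% (chow) and 99.39% (ketogenic) unthinned, and 97.54% and 96.79% at 1500 UMIs. Of 681 genes called at 1.5-fold, 537 kept the call after median scaling and 670 with 1 added. Among cells at or above the ketogenic minimum depth 591 kept it. With free RNA subtracted 635 kept it, 3 took the opposite sign and 19 had no value. Without cells with UMIs of other lineages 49 kept it, 607 had no value and 1 was opposite. Of the listed or ranked genes called at 1.5-fold, Ier3 reversed, to 0.13 with free RNA subtracted, and the cause was not tested. Genes under 1.5-fold also turned in sign there, 12 of them, Cd3e (from 0.20 to -1.47) among them. Leaving out the mast gene cell or the cells with T cell genes was chosen after seeing the data, as was the denominator outside clusters 3 and 8. Doublet removal was not run. No paired analysis was possible because each diet has 1 library. Median ratios over 5 bins of gene length ran from -0.13 to 0.24. Depth limits genes under 100 UMIs, and no alternative stands in for replicates.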
